A study of Mus musculus with 22 samples.

Results

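Total RNA of whole fetal liver from mouse embryos at E14.5 was compared between Mettl3-deficient (KO) and control (WT) animals. The comparison rests on 4 of the study's 22 samples, 2 KO and 2 WT libraries that the submitters call INPUT, and on every gene of their count table. Of 52459 genes listed, 14657 had enough counts to be tested. KO embryos were Vav-Cre Mettl3fl/fl. WT embryos were Mettl3fl/fl animals that lacked Vav-Cre, so both groups carried the floxed alleles and the labels separate them by Cre alone. The Vav promoter acts mainly in blood cells, and a whole liver also holds hepatocytes, vessels and connective tissue. Which of its cells lost the gene was not measured here. A part of each liver gave the INPUT RNA, and the remainder went into a pull-down with J2, an antibody that binds double-stranded RNA (2 KO and 2 WT libraries). LSK cells, a sorted fraction of fetal liver rich in blood stem cells and multipotent progenitors, were sequenced in 3 KO and 3 WT bulk libraries of the same study, and their values are set beside those of whole liver. The replicates are labelled biological, and whether embryos were littermates is not given in the sources used here.

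METTL3 is the enzyme that places the methyl mark N6-methyladenosine (m6A) on messenger RNA while it is being made. The fetal liver is the main blood-forming organ of the mid-gestation embryo, in which red cell precursors crowd between hepatoblasts, the precursors of hepatocytes. Cells read long double-stranded RNA through sensors such as RIG-I, MDA5 and PKR, which set off type I interferon and a large set of interferon-stimulated genes. Inflammatory cytokines act on hepatocytes and raise the secreted proteins of the acute phase.

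The INPUT libraries held 3.10 to 4.12 M counts, and 14966 to 16510 genes had at least 1 count. Levels are given as CPM, counts scaled to a library of 1 M after normalization. Summed markers of the fetal liver were present: erythroid markers came to 44904 and 37787 in KO 1 and 2 against 27263 and 34384 in WT 1 and 2, and hepatoblast markers to 19992 and 20713 against 10422 and 13671. The defining markers of lung (Sftpc, Nkx2-1) and kidney (Umod, Slc12a1) had no count. Heart markers summed to 0 and 23.2 CPM in KO against 9.27 and 1.23 in WT, gut markers to at most 5.02 and neuron markers to at most 0.496. Biliary markers varied between replicates, at 3.72 and 14.1 against 65.3 and 1.23. Endothelial markers (236 and 292 against 213 and 278) overlapped between the groups, as did stromal ones (1018 and 611 against 1218 and 329). Lymphoid markers summed to between 0.306 and 3.68 CPM. The genes Gm23935, Gm42418, Gm26917 and Gm24270, of which Gm42418 and Gm26917 overlap ribosomal RNA repeats, took 22.4% and 24.6% of KO counts but 34.1% and 35.3% of WT counts. This share moved with genotype, and its part in the results below was not tested. Without these genes the libraries held 3.20 and 2.57 M counts in KO against 2.04 and 2.06 M in WT. Leaving the genes out of the fit gave 175 calls against 173 with them. That does not test their part, since the depth of the other genes stays as it was. By Xist and Y-linked transcripts, the male libraries were KO 1 and WT 2, and the female ones KO 2 and WT 1. The spread between INPUT replicates was wide, with a common coefficient of variation of 0.577 against 0.326 for J2 and 0.121 for LSK libraries. The test shares 1 estimate of the spread over the INPUT and J2 libraries, so its p-values understate the spread of INPUT alone, and the counts called from the 4 INPUT libraries by themselves are given for each list that held a call.

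Mettl3 (ENSMUSG00000022160), the targeted gene, had 6.70 CPM in KO 1, 26.9 in KO 2, 29.4 in WT 1 and 24.9 in WT 2. Only KO 1 stood below the controls, and the library labelled KO 2 lay within their range. The fitted log2 fold change was -0.70 (standard error, SE, 0.56; adjusted p 0.557), so no fall was called. It was -2.01 without KO 2 (adjusted p 0.172) and -0.06 without KO 1. In the J2 libraries of the same livers, Mettl3 had 46.2 and 34.6 CPM in KO against 25.5 and 30.2 in WT. In LSK cells it was lower by a log2 fold change of -2.91 (adjusted p 1.57e-05). Which part of the transcript the deletion removes is not given in the sources used here. Every call and fold change of the main fit below takes the label of KO 2 as given. All genes called in that fit kept their direction when KO 2 was left out. Counts without KO 2 are given where they lead.

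In all, 173 genes (1.18%) were called at an adjusted p under 0.05, 90 of them higher in KO (0.614%) and 83 lower (0.566%). At an unadjusted p under 0.05, 1335 of the 14657 genes were higher and 1171 lower. DESeq2 called 381 higher and 445 lower of the same 14657. List counts at that p or by DESeq2 below are to be read beside these. Protein-coding genes made up 89 of the higher and 73 of the lower calls. With TMM normalization the median log2 fold change over all tested genes was 0.02, and 52% of calls were higher. Scaling by library size alone moved that median to 0.29 and gave 271 higher and 58 lower calls (82.4% higher), so changes are read relative to the other genes. The 4 INPUT libraries alone gave 25 calls, 18 higher and 7 lower, of which 24 were among the 173. Without KO 2 there were 21 calls (15 higher, 6 lower), and without KO 1 there were 19 (14 higher, 5 lower). Leaving out WT 1 gave 442 calls and WT 2 gave 284. All 173 genes kept their direction in each alternative in which they were tested. None of the 90 higher and 83 lower calls had overlapping KO and WT INPUT libraries, so that trait lends a called gene no added support.

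Interferon-stimulated genes held most of the largest rises. Of 70 listed, 65 were tested, 20 were higher and none was lower, where 0.614% of all genes were higher. The median log2 fold change of the 65 was 3.00, or 2.88 with genes absent from a group set at their lower bound, against 0.02 over all genes. Their summed level was 3032 and 3593 CPM in KO and 704 and 695 in WT. The KO and WT libraries did not overlap for 59 of the 65, all higher in KO, while 22.1% of all tested genes lay that way. The 4 INPUT libraries alone called 9 of them higher, a fit with a separate variance for INPUT and J2 called 6, and 7 were called without KO 2. An unadjusted p under 0.05 was reached by 56, and DESeq2 called 42. The 5 members not tested (Ifi205, Ifi27l2a, Ifi44l, Oas1g and Zbp1) had at most 7.34 CPM in KO and no count in WT.

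Interferon acts on most of these genes through the interferon-stimulated response element, searched here as its core, GAAA followed after any 2 bases by another GAAA. The 250 bases before the start site are shown for 3 members whose rise was called in each of the 13 alternatives, from RefSeq on GRCm38.p6, 5′ to 3′ on the strand of the gene, with matches to that core on either strand in capitals (overlapping matches run together). Isg15 lies on the minus strand (chr4:156200819-156201068), Ifit1 on the plus strand (chr19:34640639-34640888) and Rsad2 on the minus strand (chr12:26456453-26456702).
Isg15: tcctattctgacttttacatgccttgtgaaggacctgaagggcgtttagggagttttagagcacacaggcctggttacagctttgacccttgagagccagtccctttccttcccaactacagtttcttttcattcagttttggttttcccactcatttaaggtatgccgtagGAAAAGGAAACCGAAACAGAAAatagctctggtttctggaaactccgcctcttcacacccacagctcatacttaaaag
Ifit1: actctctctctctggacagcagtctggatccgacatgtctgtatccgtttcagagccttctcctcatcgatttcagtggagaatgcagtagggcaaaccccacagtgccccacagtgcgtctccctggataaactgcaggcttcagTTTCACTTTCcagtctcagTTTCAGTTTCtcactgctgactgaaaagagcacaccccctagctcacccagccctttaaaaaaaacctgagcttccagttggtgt
Rsad2: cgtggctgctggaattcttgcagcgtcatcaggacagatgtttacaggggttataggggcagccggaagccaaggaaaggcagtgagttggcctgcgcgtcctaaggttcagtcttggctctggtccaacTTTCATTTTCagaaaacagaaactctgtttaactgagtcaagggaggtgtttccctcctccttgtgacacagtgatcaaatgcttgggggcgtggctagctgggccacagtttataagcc
Isg15 held 3 overlapping matches that began 78, 72 and 66 bases before the start, Ifit1 held 2, at 104 and 85, and Rsad2 held 1, at 120. Of the 20 genes called higher, 16 had a listed promoter. In their first listed window 6 of these (37.5%) held the core: Isg15, Ifit1, Rsad2, Oas3, Irgm1 and Cxcl10. So did 20 of the 52 tested list members with a promoter (38.5%). Counting every window of every gene, 978 of 32851 promoters of the same length (2.98%) held it. A match describes the letters of the window and does not show that a factor binds there.

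Isg15 (ENSMUSG00000035692), a ubiquitin-like protein that is joined to other proteins in infected cells, had 163 and 204 CPM in KO and no count in either WT library. It was at least 304-fold higher (adjusted p 0.000379), taking 3 counts over the WT group as the floor. This bound, like those below, allows for counting error alone and not for the spread between animals. Ifit1, which binds viral RNA ends, had 96.0 and 139 CPM against 0 and 0, at least 194-fold higher (adjusted p 0.000197). Both KO libraries held these transcripts at like levels, and no read of the WT INPUT libraries was assigned to them. In the WT J2 libraries Isg15 had no count and Ifit1 had 0.444 and 0 CPM. Rsad2 (viperin), an enzyme that makes a chain-terminating nucleotide, had 127 and 188 CPM against 0 and 1.23. Its ratio was 259 (95% counting interval 88.5 to 1260; adjusted p 4.09e-05). Ifitm3, a membrane protein that blocks virus entry, had 170 and 143 CPM against 0.772 and 2.45, and its log2 fold change was 6.59 with an SE of 0.66 (adjusted p 0.000929). Irgm1, an interferon-inducible GTPase, had 124 and 111 CPM against 9.66 and 5.31 (log2 fold change 3.96, SE 0.38, adjusted p 0.000774). The KO and WT libraries stood apart for all 5, and each was called in all 13 alternatives.

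Ifi27, a mitochondrial protein induced by interferon, had 43.9 and 33.0 CPM against 0 and 0, at least 65.5-fold higher (adjusted p 0.0204). Ifi204, of the DNA-sensing PYHIN family, whose members resemble each other so that reads may be shared, had 26.3 and 14.4 CPM against 0 and 2.04 (log2 fold change 4.30, adjusted p 0.049). Cxcl10, a chemokine for T cells, was absent from WT and had 11.4 and 19 CPM in KO (adjusted p 0.0479). Lgals3bp, a secreted galectin-binding protein, had 138 and 183 CPM against 16.6 and 12.3 (log2 fold change 3.47, adjusted p 0.0116). The ADP-ribosyltransferase family members Parp14 and Parp9 and their partner Dtx3l were higher by 3.39, 2.69 and 2.16 on the log2 scale. In these 7 genes too the groups did not overlap.

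**Figure D1:**
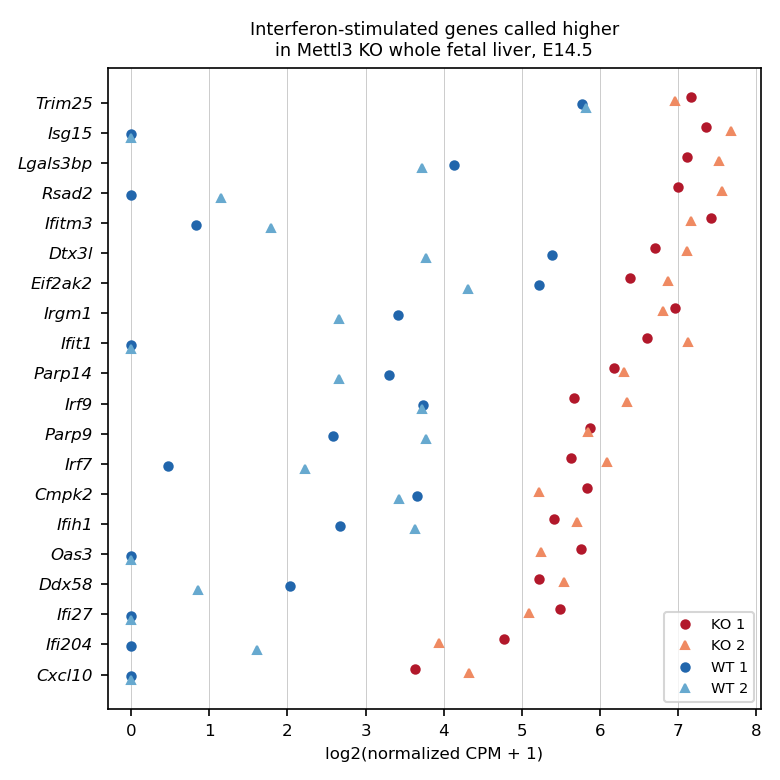
Normalized level, as log2(CPM + 1) on the horizontal axis, of the 20 interferon-stimulated genes called higher in KO (rows), with 1 point per INPUT library: KO in red shades, WT in blue shades, circles for replicate 1 and triangles for replicate 2. Each KO point lies to the right of both WT points of its row, and Isg15, Ifit1, Oas3, Ifi27 and Cxcl10 are at 0 in both WT libraries.

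Of 24 tested sensors and signalling genes for double-stranded RNA (27 listed), 6 were higher (all genes: 0.614%) and none was lower. The list shares 14 genes with the interferon-stimulated list, and all 6 called members belong to both. Oas3, an enzyme that makes the activator of RNase L, had 53.1 and 37.0 CPM in KO and no WT count, at least 77-fold higher (adjusted p 0.00567). Ddx58, which encodes RIG-I, had 36.2 and 45.6 CPM against 3.09 and 0.817 (log2 fold change 4.35, SE 0.67, adjusted p 0.0146). Irf7, the factor that amplifies interferon transcription, had 48.6 and 67 against 0.386 and 3.68 (4.83, adjusted p 0.0285). Ifih1, which encodes MDA5, had 41.7 and 51.4 against 5.41 and 11.4 (2.46, adjusted p 0.0311). Eif2ak2, which encodes the kinase PKR, had 82.9 and 117 against 36.3 and 18.8 (1.85, adjusted p 0.0311). Trim25, a ubiquitin ligase that acts on RIG-I, had 143 and 124 against 53.7 and 55.6 (1.28, adjusted p 0.0161). All KO libraries were above all WT libraries for these 6. The receptor subunits Ifnar1 and Ifnar2 and the factor Irf3 were not called (log2 fold changes -0.02, 0.23 and 0.43), nor was the RNA editor Adar (1.09, adjusted p 0.106). The interferon gene Ifnb1 had no count in any of the 4 libraries. The 4 INPUT libraries alone called 1 of the 24, Oas3, the fit with separate variances none, and 1 was called without KO 2.

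Genes of antigen presentation by MHC class I were higher in 3 of 19 (all genes: 0.614%), and none was lower. Their median log2 fold change was 1.42. B2m, the light chain of class I molecules, had 235 and 232 CPM in KO against 76.5 and 81.7 in WT (log2 fold change 1.56, adjusted p 0.0306). Tapbp, which helps load peptides, had 75.4 and 77.1 against 25.5 and 31.5 (1.42, adjusted p 0.0199). Psme1, an activator subunit of the proteasome, had 116 and 189 against 44.4 and 49.0 (1.71, adjusted p 0.0349). The groups did not overlap in these genes. None of the 3 was called from the 4 INPUT libraries alone or without KO 2, and the fit with separate variances called B2m.

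Genes of late red cell precursors were lower in 10 of 35 tested members (36 listed), and none was higher, where 0.566% of all genes were lower. The median was -0.83 on the log2 scale, and the groups did not overlap for 25 of the 35, all lower in KO (18.2% of all genes lay that way). DESeq2 called 22 lower and a fit with separate variances 8, but the 4 INPUT libraries alone called 1, and none was called without KO 2. Slc4a1, the band 3 anion exchanger of the red cell membrane, had 1301 and 1258 CPM in KO against 2728 and 3422 in WT. Its log2 fold change was -1.27 with an SE of 0.15 (adjusted p 0.00306), and it was called in 11 of 13 alternatives. Gypc, a glycophorin that ties the membrane to its skeleton, had 50.1 and 56.9 against 139 and 166 (-1.51, adjusted p 0.0137). Xpo7, a nuclear export receptor used as erythroblasts condense their nucleus, had 210 and 208 against 409 and 479 (-1.09, adjusted p 0.0212). Ermap, a blood group antigen, had 548 and 472 against 940 and 1098 (-1.0, adjusted p 0.0239). In all 4 both KO libraries were below both WT libraries. Other called members were Rhag (-1.44), Epb42 (-1.45), Ank1 (-0.90) and the mitochondrial iron importer Slc25a37 (-0.92). In bulk tissue, fewer cells of a type and less RNA per cell cannot be told apart.

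Epb42, which encodes the membrane skeleton protein 4.2, is the called member of this list with a GATA motif in its first listed promoter window (chr2:121036878-121037127, minus strand). GATA1 is the master regulator of red cell genes. The sequence is shown 5′ to 3′ on the strand of the gene, with the match to AGATAA on either strand in capitals.
Epb42: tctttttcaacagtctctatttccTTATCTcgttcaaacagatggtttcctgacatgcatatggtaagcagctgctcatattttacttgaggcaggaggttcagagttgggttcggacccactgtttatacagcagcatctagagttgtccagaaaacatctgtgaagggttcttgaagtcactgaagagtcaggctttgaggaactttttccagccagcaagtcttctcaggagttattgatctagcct
The match began 226 bases before the start. Only 3 of the 10 called genes had a promoter in the table and 1 of them held the motif, against 5 of 22 tested list members (22.7%) and 9.99% of all promoters of that length. Slc4a1 had no entry.

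Globin genes, in contrast, gave no call. Of 13 listed, 9 were tested by edgeR with a median of -0.09, 1 was higher and 1 lower at an unadjusted p under 0.05, and DESeq2 called 1 higher. Hbb-bs, an adult beta chain, had 28531 and 23491 CPM in KO against 13536 and 17919 in WT, a log2 fold change of 0.73 (adjusted p 0.105). Both KO libraries were above both WT libraries for Hbb-bs, and the fit with separate variances called it higher. Hbb-bt had 13388 and 11296 against 8978 and 10237 (0.36, adjusted p 0.332), and the alpha chain gene Hba-a2 4011 and 3232 against 3613 and 4775. Reads of these near-identical copies may be shared between them. Hbb-bs and Hbb-bt dominate the sum of erythroid markers, which was therefore not lower in KO.

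Erythroid progenitor genes gave 2 of 21 lower and none higher (median -0.35), and neither was called from the 4 INPUT libraries alone, with separate variances or without KO 2. Lmo2, a bridging protein of the GATA1 complex, had 101 and 102 CPM in KO against 254 and 305 in WT (log2 fold change -1.46, adjusted p 0.0311). Hemgn, a nuclear protein of red cell precursors, had 335 and 337 against 576 and 777 (-1.01, adjusted p 0.0484). Gata1 was not called (-0.98, adjusted p 0.12), nor were the transferrin receptor Tfrc (-1.26, adjusted p 0.0577) and Klf1 (-0.35). For the list above and the next, 0.566% of all genes were lower. Of 23 tested heme and iron genes 2 were lower and none higher (median -0.35). They were Slc25a37 and Cpox, an enzyme of the heme pathway, which had 854 and 762 CPM against 1945 and 1716 (-1.18, adjusted p 0.0374). The 4 INPUT libraries alone called 1 of these, Cpox, and without KO 2 there was none. The groups did not overlap for these called genes. The rate-limiting enzyme Alas2 was not called (-0.43).

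Among genes made by liver cells themselves, calls were all in the higher direction. Of 39 tested hepatoblast and hepatocyte genes (46 listed) 7 were higher (all genes: 0.614%) and none was lower. Their median log2 fold change was 0.73, and the libraries stood apart for 31 that were higher in KO (22.1% of all genes lay that way) and for 1 that was lower, the transcription factor gene Foxa3. The fit with separate variances called 10 higher, the 4 INPUT libraries alone 2, and none was called without KO 2. Afp, the main plasma protein of the fetus, had 8086 and 8702 CPM in KO against 4408 and 5506 in WT (0.76, SE 0.13, adjusted p 0.026). Fga, the fibrinogen alpha chain, had 590 and 644 against 231 and 254 (1.35, SE 0.19, adjusted p 0.00914), and Fgg, the gamma chain, 384 and 389 against 136 and 170 (1.34, adjusted p 0.0248). Kng1, the precursor of bradykinin, had 390 and 374 against 143 and 141 (1.43, adjusted p 0.0225). All 4 separated the genotypes without overlap. Fgb (1.48), Serpina6 (0.95) and Serpina1a (1.27) were the others, and reads of Serpina1a may be shared with its near copies. Albumin (Alb) missed the threshold at 7274 and 7522 against 3571 and 5120 (0.77, adjusted p 0.0595). The sum of 8 hepatoblast markers was higher in both KO libraries, as given above, and its part in these values was not tested.

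Of 21 tested acute phase genes (27 listed), 8 were higher (all genes: 0.614%) and none lower, with a median of 1.34. The list shares 3 genes with the hepatocyte list, the fibrinogen chains, all of them called. Hamp, which encodes hepcidin, the hormone that closes the iron exporter, had 54.3 and 47.7 CPM in KO against 0 and 0.817 in WT. Its ratio was 129 (95% counting interval 35.6 to 1070; adjusted p 0.0135). C3, the central complement protein, had 1362 and 1723 against 550 and 680 (log2 fold change 1.33, SE 0.18, adjusted p 0.00835) and was called in 12 of 13 alternatives. Itih4, a plasma protease inhibitor, had 195 and 194 against 23.6 and 49.9 (2.41, adjusted p 0.0146). Cp, which encodes ceruloplasmin, had 94.0 and 55.7 against 17.4 and 8.58 (2.52, adjusted p 0.0289), and the serum amyloid gene Saa3 had 21.1 and 17.1 against no WT count (adjusted p 0.0436). The groups stood apart in all of these. The 4 INPUT libraries alone called 3 of the 21 (Hamp, Fga and C3), the fit with separate variances 5, and none was called without KO 2.

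STAT3 carries the cytokine signal to many acute phase genes through the motif TTCNNNGAA. The bases before the start of Hamp, the gene of the list with the highest called ratio that had reads in both groups, are shown 5′ to 3′ on the strand of the gene (chr7:30944030-30944279, minus strand, RefSeq on GRCm38.p6), with the match on either strand in capitals.
Hamp: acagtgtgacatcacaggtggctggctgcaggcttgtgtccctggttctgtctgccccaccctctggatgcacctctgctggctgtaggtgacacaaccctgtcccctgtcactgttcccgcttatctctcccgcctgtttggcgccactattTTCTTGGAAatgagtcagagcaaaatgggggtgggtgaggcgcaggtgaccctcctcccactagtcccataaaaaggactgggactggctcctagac
It began 97 bases before the start. All 8 called genes had a promoter in the table and 4 of them (50%) held the motif (Hamp, Fga, Fgb and Itih4), as did 7 of 19 tested members (36.8%) and 7.02% of all promoters of that length. The motif is a description of the window only.

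**Figure D2:**
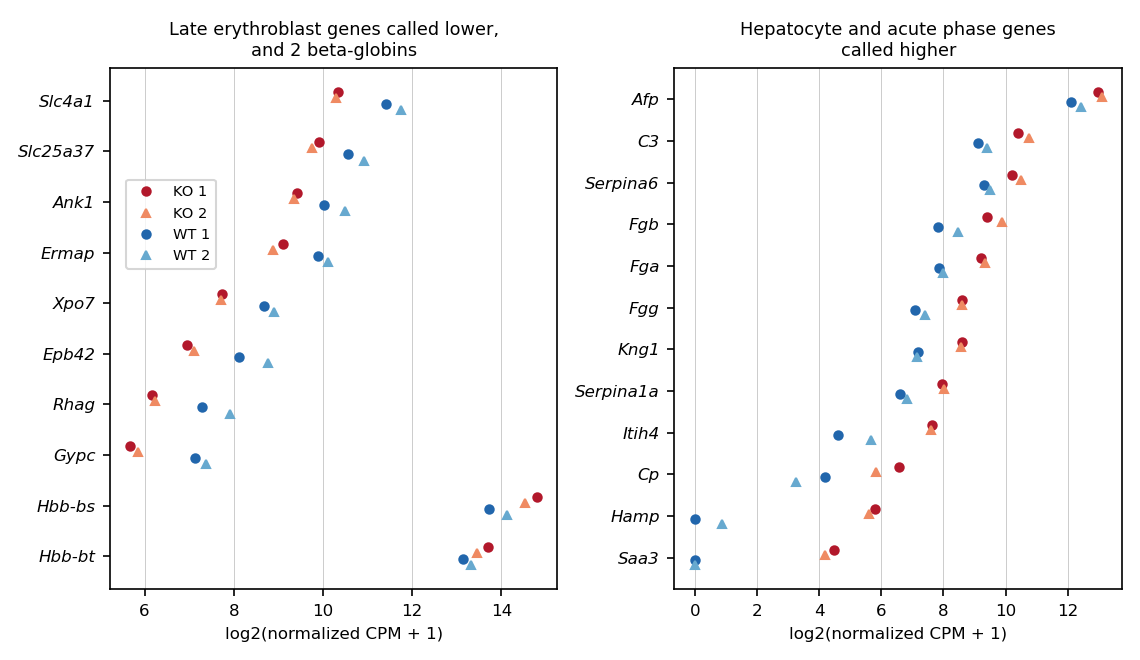
Level as log2(CPM + 1) on the horizontal axes of 8 late erythroblast genes called lower and 2 beta-globin genes (left), and of the 12 hepatocyte and acute phase genes called higher (right), with 1 point per INPUT library coloured as in the key. Each erythroblast gene lies lower in both KO libraries, such as Slc4a1 at 1301 and 1258 CPM against 2728 and 3422, while the points of the 2 globins and of the liver-cell genes lie higher in both KO libraries.

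Myeloid lists held called genes as well, where 0.614% of all genes were higher. Granulocyte genes gave 3 of 22 higher and none lower (median 1.30), but 1, Lyz2, from the 4 INPUT libraries alone and without KO 2. Mpo, the peroxidase of granules, had 307 and 358 CPM in KO against 127 and 157 in WT (log2 fold change 1.23, adjusted p 0.0432). Ms4a3, a gene of granulocyte-monocyte progenitors, had 24.8 and 11.3 against none in WT, at least 31.5-fold higher (adjusted p 0.0359). The WT J2 libraries held it at 0.666 and 1.26 CPM. Lyz2, the lysozyme of macrophages and neutrophils, had 99.0 and 127 against 18.9 and 23.7 (2.40, SE 0.29, adjusted p 0.00382) and was called in 12 of 13 alternatives. Monocyte and macrophage genes gave 2 of 26 higher and none lower (median 1.05), and none was called from the 4 INPUT libraries alone or without KO 2. The groups did not overlap for 21 members, all higher in KO, where 22.1% of all tested genes lay that way. Marco, a scavenger receptor, had 172 and 172 against 25.5 and 56.8 (2.06, adjusted p 0.025), and Cd5l, a secreted protein of Kupffer cells, 97.0 and 79.5 against 25.5 and 27.8 (1.73, adjusted p 0.0277). KO and WT libraries stood apart for these 5 genes. The summed macrophage markers were 353 and 380 CPM against 151 and 152, and the granulocyte markers 368 and 418 against 157 and 184. Mpo made up most of the granulocyte sum. Of its other markers Elane lay the other way, at 6.70 and 5.81 CPM in KO against 21.6 and 17.6 in WT (-1.64, adjusted p 0.339). It was the 1 granulocyte gene whose libraries stood apart lower in KO, and 15 stood apart higher. Of megakaryocyte genes 1 of 22 was higher, the signalling protein Plek (64.5 and 106 against 34.4 and 33.9, log2 fold change 1.32, adjusted p 0.0484). Of 13 inflammatory NF-kB genes 1 was higher, the feedback inhibitor Tnfaip3, which had reads in the WT J2 libraries (4.22 and 1.51 CPM). In INPUT it had 6.95 and 24.8 against 0 and 0 (at least 25.1-fold by counting error alone, adjusted p 0.0345). Neither was called from the 4 INPUT libraries alone or without KO 2.

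**Figure D3:**
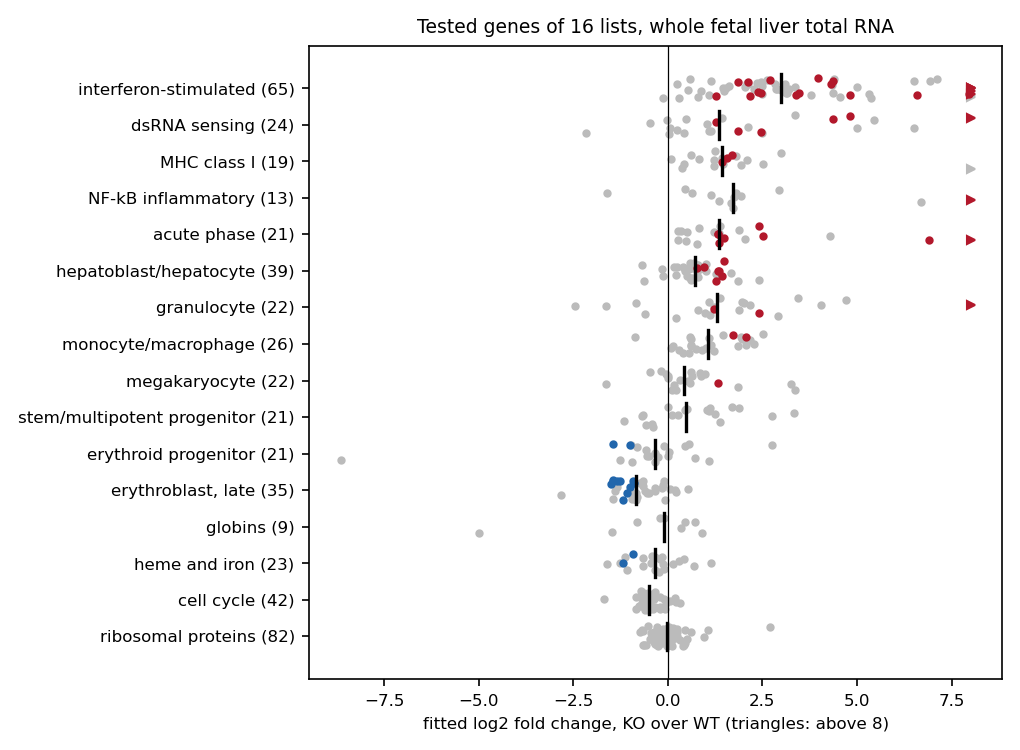
Fitted log2 fold change, KO over WT, of each tested gene (points) in 16 lists (rows, with the number tested), with called genes in red (higher) or blue (lower), the others in grey, and a black bar at the list's median; triangles mark values above 8. The interferon-stimulated list has its median at 3.00 and 20 red points, and the late erythroblast list its median at -0.83 and 10 blue points.

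The 25 genes called from the 4 INPUT libraries by themselves were chosen here after their values were seen. They include Cybb, the catalytic subunit of the phagocyte oxidase, which shared the smallest adjusted p of the 8-library fit with Rsad2 and stood at 120 and 154 CPM in KO against 10.8 and 10.6 in WT (3.67, SE 0.24, adjusted p 4.09e-05). Ctsc, the protease that activates granule enzymes, had 119 and 126 against 18.2 and 19.6 (2.69, adjusted p 0.000561), and Rnf213, a large ubiquitin ligase, 544 and 791 against 94.2 and 46.6 (3.24, adjusted p 0.000863). The falls among the 25 include Pabpc4, which binds poly(A) tails, at 317 and 289 against 850 and 960 (-1.58, SE 0.16, adjusted p 0.00118), and Atp2b4, a calcium pump of the red cell membrane, at 222 and 227 against 523 and 662 (-1.40, adjusted p 0.0106). Groups did not overlap for any of the 5. Gm23935, from the set of genes that took a large share of counts, was also among the falls (-1.05, adjusted p 0.000197). The fold changes and adjusted p-values of this paragraph so far are those of the 8-library fit. From the 4 INPUT libraries alone, the adjusted p of the same test was 0.00832 for Cybb, 0.0257 for Ctsc and 0.0179 for Rnf213. It was 0.0164 for Pabpc4, 0.0462 for Atp2b4 and 0.00157 for Gm23935.

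Outside the lists, the largest named rises were those of Dusp7 and Chst12. Dusp7, a phosphatase of MAP kinases, had 27.5 and 25.4 CPM in KO against 0 and 2.86 in WT (log2 fold change 4.21, adjusted p 0.0436). Chst12, a sulfotransferase for chondroitin chains, had 84.4 and 39.8 against 5.41 and 1.23 (4.20, adjusted p 0.0239). Neither overlapped between the genotypes, which the rule for naming them required. Neither was called from the 4 INPUT libraries alone or by the fit with separate variances. In the J2 libraries, Dusp7 had 27.8 and 27.2 CPM in KO against 17.8 and 20.4 in WT. Chst12 had 11.1 and 9.72 there against 4.66 and 4.03.

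Large falls were in genes of varied function. C5ar2, a receptor for the complement fragment C5a, had 1.24 and 0 CPM in KO against 19.7 and 67.4 in WT (log2 fold change -5.98, adjusted p 0.0296), and its values in the J2 libraries of the same livers overlapped. Il1rl1, the receptor for IL-33 and the called member of 4 tested mast cell genes, had 1.74 and 0.917 against 15.8 and 44.1 (-4.44, adjusted p 0.0296), and was not called from the 4 INPUT libraries alone or without KO 2. Muc6, a secreted mucin, had 7.69 and 1.22 against 44.0 and 69.9 (-3.62, adjusted p 0.026). Mylk3, a myosin light chain kinase, had 13.9 and 13.5 against 73.0 and 117 (-2.79, adjusted p 0.0106), and its J2 libraries were apart too, with at most 21.7 in KO against at least 62.6 in WT. The INPUT libraries of the 2 genotypes stood apart in all 4. Of these, only Mylk3 was called from the 4 INPUT libraries alone, and none was called with separate variances.

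Fbxo45, a ubiquitin ligase subunit, had 11.4 and 20.2 CPM in KO against 84.6 and 106 in WT (log2 fold change -2.60, SE 0.34, adjusted p 0.00567), while its J2 values were 107 and 81.6 against 94.4 and 108. Xrcc2, a DNA repair gene, had 7.94 and 7.34 against 49.8 and 38.4 (-2.52, adjusted p 0.0106). Wdr44, a Rab11-binding protein, had 8.68 and 7.65 against 58.7 and 26.6 (-2.38, adjusted p 0.0359), yet its J2 libraries were higher in KO (44.9 and 36.7 against 32.4 and 33.2). So the INPUT and J2 values of the same livers pointed different ways for Wdr44 and overlapped for Fbxo45. Tmc8, an endoplasmic reticulum channel-like protein, had 31.3 and 15.0 against 91.5 and 121 (-2.19, adjusted p 0.0296), and Pfkm, a phosphofructokinase of glycolysis, 16.1 and 26.0 against 93.5 and 71.5 (-1.97, adjusted p 0.049). Tbccd1 and Zfp512 fell by 2.08 and 2.01 on the log2 scale (adjusted p 0.0374 and 0.0296). KO libraries were below WT libraries for each of these genes in INPUT. Over all calls, the J2 libraries stood apart in the same direction for 83 of 90 higher and 64 of 83 lower genes. Of all tested genes, 26.6% and 27.9% lay those ways in J2. The J2 libraries stood apart in the opposite direction for 3 higher and 3 lower calls. They come from the same livers and entered the same fit.

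Single calls came from 3 more lists, where 0.614% of all genes were higher and 0.566% lower. Cd24a, a surface glycoprotein also found on red cell precursors, was the 1 gene lower among 9 tested biliary genes, at 527 and 320 CPM in KO against 881 and 1106 in WT (log2 fold change -1.23, adjusted p 0.0441). Fn1, the matrix protein fibronectin that hepatocytes also secrete, was the 1 gene higher among 26 stromal genes, at 1433 and 1672 against 769 and 826 (0.96, SE 0.16, adjusted p 0.0229). Odc1, the first enzyme of polyamine synthesis, was the 1 gene lower among 40 MYC and ribosome biogenesis genes, at 262 and 279 against 417 and 538 (-0.82, adjusted p 0.0441). Each separated KO from WT without overlap. None of the 3 was called from the 4 INPUT libraries alone or without KO 2, while the fit with separate variances called Cd24a and Fn1.

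Cell cycle genes had no call by edgeR among 42 tested. At an unadjusted p under 0.05, 14 were lower and none higher, where 1171 of all 14657 tested genes were lower. DESeq2 called 445 of all tested genes lower and 7 of these 42. Their median was -0.51 on the log2 scale, from -0.63 to -0.24 over the alternatives, and the groups did not overlap for 28, all lower in KO, where 18.2% of all tested genes lay that way. Mki67, the proliferation antigen, had 3322 and 2846 CPM in KO against 3777 and 4880 in WT (-0.49, adjusted p 0.127). Top2a, a topoisomerase of dividing cells, had 506 and 522 against 752 and 930 (-0.71, adjusted p 0.0713). Cyclin-dependent kinase inhibitor genes gave no call among 8 by edgeR or DESeq2, and 3 were lower at an unadjusted p under 0.05. There Rbl1 had 74.4 and 67.3 against 104 and 116 (-0.63), and Cdkn1c 242 and 295 against 391 and 218 (-0.18, but 0.075 with library size alone).

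The m6A machinery gave no call by edgeR. Of 9 writer genes 2 were lower at an unadjusted p under 0.05 and by DESeq2. Of 14 readers and erasers 1 was higher and 1 lower at that p, and DESeq2 called 1 higher. The writer subunit Zc3h13 had 112 and 135 CPM in KO against 141 and 131 in WT (log2 fold change -0.14, and 0.13 with library size alone), and Rbm15 98.0 and 77.4 against 136 and 111 (-0.49, adjusted p 0.305). The RNA-binding Hnrnpa2b1 and Hnrnpc differed by -0.32 and -0.22, the second 0.055 with library size alone. Genes of H3K4 methylation gave no call among 19 by edgeR, 1 higher and 3 lower at an unadjusted p under 0.05, and 1 lower by DESeq2. Among them Kmt2d had 610 and 535 against 753 and 812 (-0.45, adjusted p 0.169) and Setd1b overlapped (310 and 230 against 283 and 197).

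Stem and multipotent progenitor genes had no call among 21 tested by edgeR (4 higher, 0 lower at an unadjusted p under 0.05; 1 higher by DESeq2). The stem cell factor receptor Kit had 27.5 and 33.6 CPM in KO against 36.3 and 54.8 in WT (log2 fold change -0.57), and the fetal-stage regulator Lin28b 34.2 and 33.3 against 50.6 and 38.8 (-0.40). No call came from 7 lymphoid genes, where Notch1 had 62.8 and 46.8 against 35.9 and 18.8 (1.00, adjusted p 0.213) and Tcf7 overlapped. Nor did any come from 6 dendritic cell genes, where Irf8 (12.2 and 30.6 against 6.18 and 64.6) and Zbtb46 overlapped. Endothelial genes gave none of 24, with the scavenger receptors Stab1 (57.8 and 88.7 against 71.8 and 98.1) and Stab2 overlapping. At an unadjusted p under 0.05, 1 lymphoid gene was higher and 1 lower, no dendritic gene passed, and 1 endothelial gene was higher. DESeq2 called none in these 3 lists.

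Stress and metabolic lists gave no call by edgeR either. Among 29 integrated stress response genes, Ppp1r15a, which ends the stress signal by restoring translation, had 189 and 164 CPM in KO against 309 and 305 in WT (log2 fold change -0.80, adjusted p 0.0704), and the asparaginyl-tRNA synthetase Nars overlapped (-0.0018). Among 25 p53 targets, Mdm2 (0.44) and Btg2 (-0.50) overlapped between the groups. Hypoxia genes (21 tested) had Ldha at 520 and 473 against 374 and 339 and Slc2a1 at 274 and 251 against 325 and 345. Cholesterol and fatty acid genes (26) had Scd2 at -0.23 and Fasn at 0.32. Among 13 cell death genes Cflar overlapped between the groups. Among 7 SOCS genes Socs4 differed by -1.13 and Socs6 by 1.12 (adjusted p 0.219 and 0.107), so members lay in both directions. Heat shock genes (16) had Hsp90ab1 at 0.30 and Hsp90aa1 at -0.21, and immediate early genes (15) had Jund at 0.70. At an unadjusted p under 0.05 these 8 lists had between 1 and 5 members higher and at most 3 lower, and DESeq2 called at most 2 members of a list in 1 direction.

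The lists of mitochondrially encoded, structured noncoding and cytosolic ribosomal protein genes gave no call in the same edgeR fit. The mitochondrial ribosomal RNAs mt-Rnr2 (35400 and 35279 CPM in KO against 43180 and 49740 in WT) and mt-Rnr1 differed by -0.39 and -0.36 (adjusted p 0.0815 and 0.0924), and the fit with separate variances called both lower. Among 17 structured noncoding RNAs, Rpph1, the RNA of RNase P, differed by -0.50 (adjusted p 0.136) and H19 by 0.35 (adjusted p 0.151). The cytosolic ribosomal protein genes (82 tested) had a median of -0.03, with Rpsa at 0.02 and Rpl4 at -0.01. At an unadjusted p under 0.05, 2 of 12 mitochondrial genes were lower. At that p 1 structured RNA was higher and 3 lower, and 4 ribosomal protein genes were higher and 6 lower. Of all 14657 tested genes, 1335 were higher and 1171 lower at that p, and the ribosomal protein counts lie below those shares. DESeq2 called 2 mitochondrial, 3 structured noncoding and 3 ribosomal protein genes lower, and 1 ribosomal protein gene higher.

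Sorted LSK cells of the same study were a second set of samples for the same genotypes. There, 21.6% of 14405 tested genes were higher and 22.6% lower in KO. Of the 90 genes higher in whole liver, 85 were tested in LSK cells, where 59 were higher (69.4%) and 4 lower. These 59 were 2% of the genes higher in LSK cells and tested in both. Of the 83 lower in liver, 81 were tested, 45 were lower (55.6%) and 5 higher, and the 45 were 1.71% of those lower in LSK cells. Interferon-stimulated genes were higher in 56 of 65 in LSK cells (median 0.97 against 3.00 in liver). Late erythroblast genes were lower in 20 of 35 there (median -0.50) and higher in 6. Macrophage genes went the other way, with 2 higher and 13 lower of 26 (median -0.77), and MYC and ribosome biogenesis genes had 30 of 40 higher in LSK cells. Odc1 was higher in LSK cells (0.62, adjusted p 0.000558) and lower in liver. Fn1 and Cd5l were lower in LSK cells (-1.11 and -2.46) and higher in liver. Macrophage genes such as Cd5l and Marco were near the floor in LSK cells. Their means there were 0.728 and 1.39 CPM in KO and 3.95 and 2.03 in WT. LSK libraries were made from polyadenylated RNA and INPUT from total RNA, so levels are not compared.

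**Figure D4:**
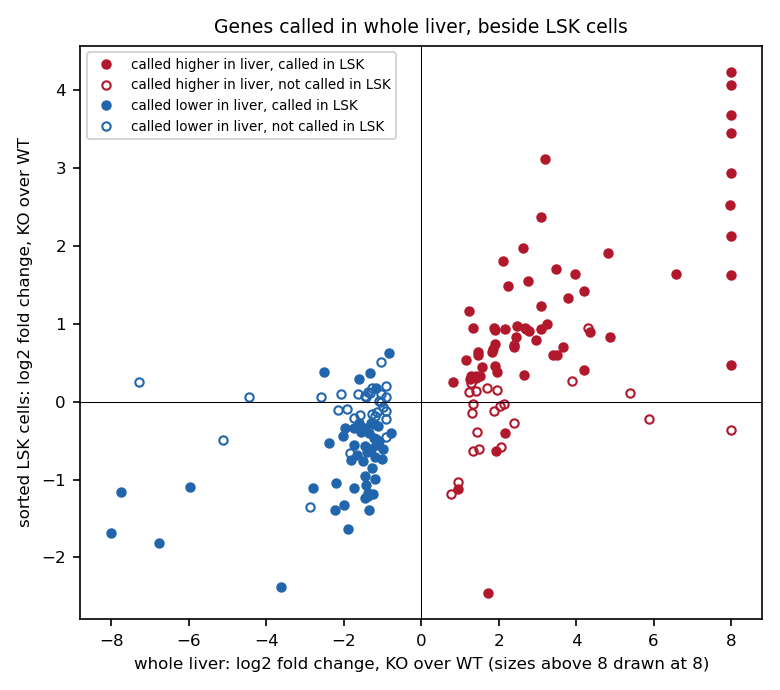
Log2 fold change, KO over WT, in whole liver (horizontal axis, with sizes above 8 drawn at 8) and in LSK cells (vertical axis) for each gene called in whole liver and tested in both, with higher genes in red and lower in blue, filled where also called in LSK cells. Of 85 genes higher in liver 59 are filled and higher in LSK cells, and of 81 lower in liver 45 are filled and lower.

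The difference between the 2 KO effects was tested directly in 1 fit of the INPUT and LSK libraries. It called 909 of 17217 genes (5.28%), 611 more positive (3.55%) and 298 more negative (1.73%) in liver. That fit shares a spread between the noisy INPUT libraries and the much tighter LSK libraries. With a separate variance for each kind, 3 genes stayed called, H19, Igf2 and Gm23935. H19, an imprinted noncoding RNA, had 6250 and 6944 CPM in KO liver against 5098 and 5235 in WT and was lower in LSK cells by -1.50 (difference 1.87, adjusted p 0.000157 with separate variances). Igf2, the imprinted growth factor gene beside it, overlapped in liver (6844 and 7253 against 7710 and 7046) and was lower in LSK cells by -1.76 (difference 1.70, adjusted p 0.000518). For the other genes, a difference in size between liver and LSK cells was not called once the wider spread of INPUT was allowed for.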

How the data were processed

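The count table, as deposited by the authors, holds raw counts of aligned reads per gene for the INPUT and J2 libraries, and a second such table holds the LSK libraries. Per the submitters' processing notes, GRCm38.p5, STAR 2.5.3a and edgeR were among the builds and tools. The counting tool, strand setting and treatment of duplicates are not given in the sources used here, so reads of overlapping or antisense genes may be shared. Of the values, 0 columns could not be matched to a sample.

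Counts were tested with edgeR 4.0.16 in R 4.3.3 (filterByExpr with a minimum count of 10, TMM, quasi-likelihood F test, Benjamini-Hochberg adjustment over all tested genes, called at an adjusted p under 0.05). The 8 INPUT and J2 libraries entered 1 fit with 4 group means, contrasting INPUT KO with INPUT WT. Log2 fold changes are KO over WT, and CPM values are TMM-normalized. Levels are not compared between genes, since lengths were not used. Groups at 0 were set at a floor of 3 counts per group. That bound and the intervals, which are exact binomial at 95%, cover counting error only. The difference between liver and LSK effects is an interaction contrast over the INPUT and LSK libraries.

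Replicate numbers were checked for pairing: deviations from group means correlated at -0.0128 over genes, so numbers were not treated as pairs. Replicate libraries of a group differed by a chi-square of 17.5 (KO) and 15.9 (WT) per gene, so none was a repeat deposit. The script was tested on simulated data. Alternatives were RLE factors, library size alone, no filter, DESeq2 1.42.0, the 4 INPUT libraries alone, a replicate block, library sex as a covariate, leaving out each library and, added after the data were seen, limma 3.58.1 voom with a variance weight per kind of library and leaving out 4 repeat genes.

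The comparison, the 37 gene lists and the tests were chosen with earlier results of these data known. Named are Mettl3; the 12 largest rises and 12 largest falls among called genes with a mean of at least 10 CPM and no overlap, without predicted and sex-linked marker genes; up to 4 called members of each list by adjusted p; and, in lists without a call, the 2 with the highest mean. Others are named as list members or as stated, and a few genes that these rules select are not reported here. Promoters are RefSeq windows matched by symbol. For list members only the first listed window of each gene was searched, while shares over all promoters count every window.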

Additional observations from a re-analysis of the deposited data

Results flagged for a closer look

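The 38 genes below stood out because the KO effect in whole liver differed from that in LSK cells in the edgeR interaction test (adjusted p between 0.000737 and 0.0497). Only genes named by rule were screened, and many of these were named for their change in the same INPUT libraries. Their number therefore lends no added support. Over all tested genes, 909 of 17217 (5.28%) were called. Values are the liver log2 fold change minus the LSK one. Differences above 0 were found for H19 (1.87), Ifitm3 (5), Lyz2 (2.71), Ifi27 (11.33), Isg15 (11.76), Fn1 (2.1), Irgm1 (2.35), Rsad2 (5.52), Ddx58 (3.49), Oas3 (11.04), Trim25 (0.98), Ifit1 (10.88), Dusp7 (3.86), Notch1 (1.71), Plek (1.49), B2m (1.14), Psme1 (1.56), Tapbp (1.11), Tnfaip3 (12.02), Chst12 (2.81), Cd5l (4.2), Marco (2.69), Irf7 (2.96) and Ms4a3 (8.92). Differences below 0 were found for Xrcc2 (-2.89), Fbxo45 (-2.64), Lmo2 (-1.51), Odc1 (-1.42), Xpo7 (-1.08), Rbm15 (-1.59), Il1rl1 (-4.5), Pfkm (-1.61), Zfp512 (-1.55), Tbccd1 (-2.15), Slc2a1 (-0.9), Hsp90aa1 (-0.72), Mylk3 (-1.67) and C5ar2 (-4.9). The 6 values above 8 come from genes with no WT count in liver, depend on the prior count and are no measure of size. With a separate variance for INPUT and LSK libraries, H19 alone of these 38 stayed called (adjusted p 0.000157).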

How the results depend on the processing

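Counts of called genes (173, 90 higher and 83 lower; 59 distinct list members) moved with the setting. Library size alone gave 329 (271 higher; 89 list members), no filter 798 (377 and 421; 141), DESeq2 826 (381 and 445; 145), and the 4 INPUT libraries alone 25 (18 and 7; 16). Library sex as a covariate gave 64 (32 and 32; 39). Separate variances gave 66 (34 and 32; 36), 56 of them among the 173. The replicate block gave 20 (15 and 5; 12), with 2 pairs whose numbers did not correlate. Leaving out 1 library gave 19 to 442 (14 to 182 higher, 5 to 260 lower, 8 to 80 list members). Mettl3 ranged from -2.01 to -0.06 when a library was left out, and stayed on the same side of the threshold throughout. RLE factors and leaving out the repeat genes stayed within 1.5 times of the main counts.

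The difference between liver and LSK effects (909 genes) became 1447 with library size alone, 2788 with DESeq2, 307 with the replicate block, 3 with separate variances and 127 to 2938 when 1 library was left out (lowest without LSK KO 3, highest without WT 1 of liver). RLE factors gave 914 and no filter 773.

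Among the genes named by rule, no called gene changed sign, and 16 that were not called did in at least 1 alternative. Rpsa was -0.014 with RLE factors and with DESeq2 and -0.0024 without filter. Library size alone turned Zc3h13 (0.13), Hnrnpc (0.055), Scd2 (0.043), Stab1 (0.064), Stab2 (0.011), Nars (0.29), Cdkn1c (0.075), Hsp90aa1 (0.060) and Rpl4 (0.26). Nars was 0.0079 with 4 libraries, 0.073 with the replicate block, 0.071 with sex, 0.070 with separate variances and 0.021 without the repeat genes, where Rpl4 was 0.014. With 1 library left out, log2 fold changes ran from -0.54 to 0.0046 for Hnrnpc, -0.73 to 2.98 for Tcf7, -1.65 to 1.76 for Irf8, -0.40 to 0.54 for Zbtb46, -0.56 to 0.015 for Stab1, -0.62 to 0.080 for Stab2, -0.25 to 0.86 for Mdm2, -0.46 to 0.55 for Nars, -0.069 to 0.67 for Cflar, -0.56 to 0.25 for Cdkn1c, -0.11 to 0.41 for Setd1b, -0.16 to 0.15 for Rpsa and -0.13 to 0.040 for Rpl4. The cause of these changes was not tested. Depth was 3.10 to 4.12 M counts with 2 libraries a group. Without the 4 repeat genes it was lower in both WT libraries (2.04 and 2.06 M) than in KO (3.20 and 2.57 M). Replicates differed beyond counting error: 812 genes in KO and 1049 in WT had no count in 1 replicate and at least 10 in the other.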
